A study of Rattus norvegicus with 22 samples.

Results

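Genes that p53 is known to switch on when it stops the cell cycle or limits its own activity were followed in irradiated and untreated rat brain tumors and in the brain tissue of the opposite hemisphere. The 10 genes were Cdkn1a, Mdm2, Ccng1, Btg2, Gadd45a, Plk2, Plk3, Sesn1, Sesn2 and Zmat3, chosen by gene symbol. They were measured by 15 of the 31042 probe sets of the array that were not controls, and the array held 13695 genes with a single symbol. The file's own symbols gave 9 genes and 14 probe sets. Sesn2 was found through its RefSeq accession, because the file carries an older name for it.

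All animals were male Fischer rats, 8 weeks old at arrival, and all 11 carried a 9L tumor grown from cultured rat glioma cells placed in the right caudate nucleus. Of these, 6 rats (rats 6 to 11) received microbeam radiation therapy (MRT), in which synchrotron X-rays are split into parallel narrow beams, at 400 Gy inside the beams and 18 Gy in the valleys between them, 10 days after implantation. The methods of the study give both doses at the tumor, with the beam running from right to left. They give no separate value for contralateral brain, where similar irradiation was intended. Tissue was taken 6 h after MRT, and the other 5 rats (rats 1 to 5) were not irradiated. Tumor and contralateral brain were taken from each rat, which gave 4 groups: MRT tumor (n = 6), untreated tumor (n = 5), MRT contralateral brain (n = 6) and untreated contralateral brain (n = 5). The contralateral tissue therefore came from tumor-bearing animals in both groups, and the tumor is a single implanted cell line in a rat host. The control rats were also implanted in common with another experiment.

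The p53 protein is a transcription factor that is stabilised after DNA damage. Cdkn1a encodes p21, which blocks cyclin-dependent kinases and so holds the cell cycle, while Gadd45a, Btg2 and the polo-like kinases Plk2 and Plk3 act on checkpoints and growth. Mdm2 encodes the ubiquitin ligase that marks p53 for degradation and closes a negative feedback loop, in which Ccng1 (cyclin G1) also takes part. Sesn1 and Sesn2 encode sestrins, which restrain mTORC1 signalling under stress, and Zmat3 encodes an RNA-binding protein. The 9L line has been described as carrying a mutant p53, and the tumors here are bulk tissue that also holds host cells.

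Promoter sequences are shown because the members differ in the motifs near their starts. The RefSeq table (assembly GRCr8) gave a window of 250 bases before to 50 bases after the start for 9 of the 10 genes. A p53 half-site of 10 bases, not a full p53 element, was searched by its consensus on both strands. It was in 4 of these 9 windows and in 8.0% of all 33469 windows. Those were the windows of Cdkn1a, Ccng1, Gadd45a and Sesn1, with the motif in capitals below.
Cdkn1a (chr20:7150706-7150765, plus strand): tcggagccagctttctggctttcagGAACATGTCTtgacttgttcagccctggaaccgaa
Ccng1 (chr10:25685074-25685126, minus strand): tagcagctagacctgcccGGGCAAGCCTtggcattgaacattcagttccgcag
Gadd45a (chr4:97486813-97486872, minus strand): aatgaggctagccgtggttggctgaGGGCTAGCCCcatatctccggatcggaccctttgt
Sesn1 (chr20:46948522-46948581, plus strand): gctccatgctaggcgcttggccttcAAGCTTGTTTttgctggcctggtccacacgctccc

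The full cAMP response element, TGACGTCA, was in the windows of Btg2 and Plk2 and in 1.8% of all windows, and it is in capitals here.
Btg2 (chr13:48087859-48087916, minus strand): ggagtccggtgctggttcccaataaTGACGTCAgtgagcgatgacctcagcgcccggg
Plk2 (chr2:43702445-43702502, plus strand): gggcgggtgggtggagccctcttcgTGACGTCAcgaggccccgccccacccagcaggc
The shorter form TGACG, which the full element contains, was in 7 of 9 member windows and in 21.2% of all windows. The GC box GGGCGG was in 7 of 9 and in 33.1%, and neither the TATA box TATAAA (14.2% of all windows) nor the CArG box consensus of serum response factor (1.6%) was in any of the 9. A match describes the letters only, and each window follows the start that RefSeq lists. Among the 4 genes with the p53 half-site, Cdkn1a, Ccng1 and Gadd45a passed the test after MRT in contralateral brain and Sesn1 did not. Of the genes whose windows lacked it, Mdm2, Btg2 and Sesn2 passed there too, and Plk2 and Plk3 did not. In tumor, Cdkn1a passed with the half-site and Mdm2 and Sesn2 passed without it. Of the 2 genes with the full cAMP response element, Btg2 passed in contralateral brain and Plk2 did not.

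Expression is given as the signal of each probe set after the authors' RMA normalization, in arbitrary units, and changes as log2 fold changes of MRT over untreated with a standard error (SE) from limma. A probe set passed when its p-value, adjusted by Benjamini-Hochberg over all 31042 probe sets, was under 0.05. A gene stands for its brightest probe set unless another is named. The array medians lay between 202 and 215 in tumor and between 199 and 205 in contralateral brain. Markers separated the tissues as labelled, since the summed signal of 5 proliferation genes was 5436 to 21502 on tumor arrays and 426 to 643 on contralateral arrays. The tumor samples also carried neuronal signal, with a summed signal of 5 neuronal genes of 26316 to 44352, against 50732 to 61785 in contralateral brain. In such bulk samples, fewer cells of a type and less RNA per cell cannot be told apart.

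In tumor, 3 of the 10 genes rose after MRT (Cdkn1a, Mdm2 and Sesn2) and none fell, where 0.884% of all genes rose and 0.380% fell. This count was 6 with SAM, with a level filter, with array weights and with 1 fit of all groups (Ccng1, Btg2 and Gadd45a added), and 5 without rat 7 (Ccng1 and Gadd45a added). In contralateral brain, 6 of the 10 rose (Cdkn1a, Mdm2, Ccng1, Btg2, Gadd45a and Sesn2) and none fell, where 4.42% of all genes rose and 1.38% fell. The median log2 change of the 10 genes was 1.13 in tumor, against a median over all genes of -0.01, and 0.99 in contralateral brain. Of their 15 probe sets, 6 rose in tumor (0.593% of all probe sets) and 10 rose in contralateral brain (2.86% of all probe sets). The MRT and untreated groups did not overlap for those 3 genes in tumor (2.17% of all genes) and those 6 in contralateral brain (5.28% of all genes). Plk2, Plk3, Sesn1 and Zmat3 passed in neither tissue, and none of the 10 was lower at an unadjusted p under 0.05 in limma.

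**Figure D1:**
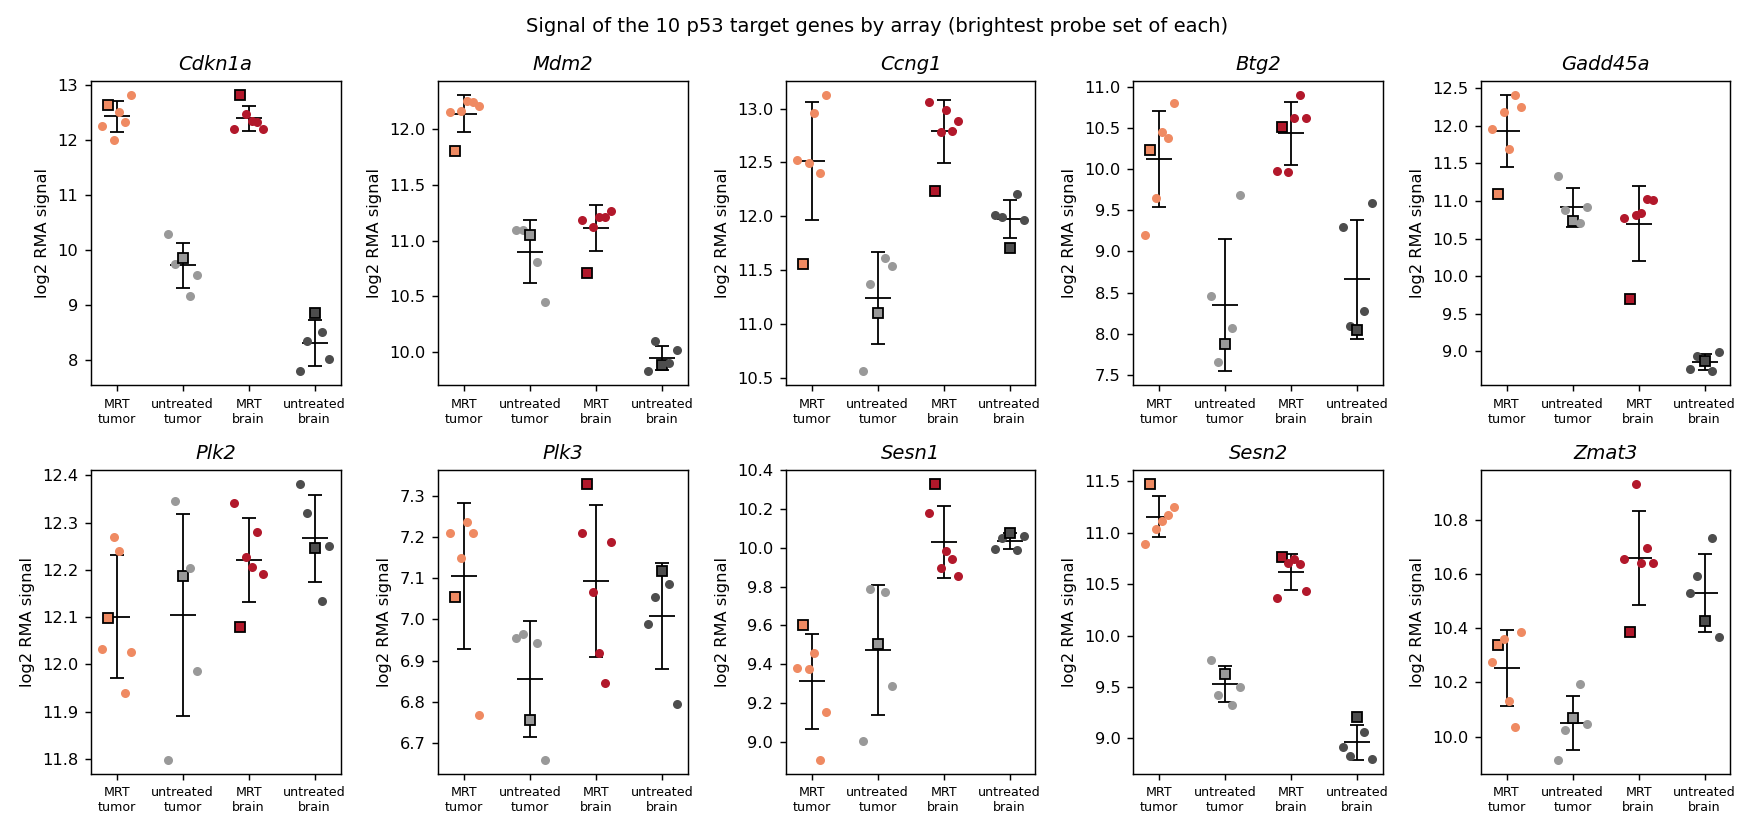
Signal of the brightest probe set of each of the 10 genes on every array (log2 RMA signal, vertical axis, a separate range for each gene) in MRT tumor, untreated tumor, MRT contralateral brain and untreated contralateral brain. Points are rats, bars show mean and SD, and black-edged squares are rats 3 and 7. Cdkn1a, Mdm2 and Sesn2 separate MRT from untreated arrays in both tissues, while Plk2 and Plk3 overlap.

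Cdkn1a had the largest change of the 10 genes in both tissues. In MRT tumors its signal ran from 4133 to 7270 with a median of 5515, against 1254, 857, 928, 575 and 749 in untreated tumors. The groups were far apart, the lowest irradiated tumor lying above every untreated one. The log2 change was 2.71 ± 0.20 (SE), a 6.55-fold difference (limma, adjusted p = 7.5e-05).

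In MRT contralateral brain the Cdkn1a signal ran from 4705 to 7257 with a median of 5199, against 222, 325, 463, 364 and 258 in untreated contralateral brain. Again no array of one group reached the other. This was a log2 change of 4.09 ± 0.18, or 17.1-fold (limma, adjusted p = 1.5e-08). After MRT the 2 tissues covered overlapping ranges, and the difference between them lay in the untreated arrays. Untreated tumors stood above untreated contralateral brain by 1.42 ± 0.23 on the log2 scale (limma, adjusted p = 0.00045). The response to MRT was smaller in tumor than in contralateral brain by 1.38 ± 0.27 (95% confidence interval of the difference -1.95 to -0.81; limma interaction test over 22 arrays, adjusted p = 0.019, where 0.737% of all genes passed with a lower response in tumor and 0.0876% with a higher one). This call was lost without rat 1, 2, 6, 8, 9 or 10 (adjusted p between 0.054 and 0.078) and with the mean of both Cdkn1a probe sets (-1.07, adjusted p = 0.99). The dimmer probe set alone, 1387391_at, gave 3.14 ± 0.64 in tumor and 3.91 ± 0.27 in contralateral brain, with a difference of -0.77 ± 0.73 that did not pass. On this probe set the tumor groups overlapped (496 to 4410 after MRT, against 80 to 502 in untreated rats) and the contralateral groups did not.

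Gadd45a, whose protein binds PCNA and p21 and takes part in the G2/M checkpoint, rose in contralateral brain. Its signal in MRT tumors ran from 2188 to 5424 (median 4308), against 2588, 1881, 1696, 1676 and 1929 in untreated tumors. Rat 7 gave the lowest irradiated tumor value and lay inside the untreated range, while the other 5 MRT tumors, at 3303 or more, were above it. The log2 change of 1.02 ± 0.22 in tumor did not pass (limma, adjusted p = 0.059), and it passed without rat 7 (1.18, adjusted p = 0.0047).

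In MRT contralateral brain Gadd45a ran from 834 to 2092 (median 1818), against 435, 492, 468, 427 and 509 in untreated contralateral brain. The lowest value was again rat 7, and it still exceeded every untreated array. MRT raised it by 1.83 ± 0.20 on the log2 scale, or 3.57-fold (limma, adjusted p = 7.7e-05). Untreated tumors already stood above untreated contralateral brain by 2.05 ± 0.13 (4.15-fold, adjusted p = 4e-07). The response in tumor minus that in contralateral brain was -0.82 ± 0.31 (adjusted p = 0.83). Both tissues came from the same animals, and the call depended on how the rat entered the fit: with the rat as a fixed block the difference passed (adjusted p = 0.025), and with the rat as a random block it did not (adjusted p = 0.32). It passed without rat 7 (-0.85, adjusted p = 0.023).

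Mdm2, the feedback inhibitor of p53, rose by nearly the same factor in both tissues. Its signal ran from 3571 to 4868 (median 4657) in MRT tumors, against 2193, 2183, 2125, 1796 and 1396 in untreated tumors. The ranges were well separated, and 5 of the 6 irradiated tumors lay within 4558 to 4868. MRT tumors were higher by 1.24 ± 0.13 on the log2 scale, or 2.36-fold (limma, adjusted p = 0.0011).

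In contralateral brain Mdm2 ran from 1672 to 2463 (median 2350) after MRT, against 910, 1099, 946, 960 and 1040 in untreated rats. No array overlapped, and the log2 change was 1.17 ± 0.11 (2.25-fold, limma, adjusted p = 1.5e-05). The difference of the 2 responses was 0.07 ± 0.17, with a 95% confidence interval of -0.29 to 0.42. Untreated tumors were above untreated contralateral brain by 0.95 ± 0.13 (adjusted p = 0.00018), so the irradiated contralateral brain reached the level of the untreated tumor, with overlapping ranges. The probe set 1384427_at rose in tumor (1.36 ± 0.26, adjusted p = 0.034) and in contralateral brain (1.40 ± 0.22, adjusted p = 0.002). The dimmest, 1383485_at, gave 1.59 ± 0.52 in tumor (adjusted p = 0.3) and rose in contralateral brain by 1.26 ± 0.29 (adjusted p = 0.023). MRT and untreated tumors overlapped on both of these probe sets. Rat 7 read 1151 on 1384427_at, against 891 to 1246 in untreated tumors, and 90 on 1383485_at, against 81 to 239. The contralateral groups overlapped on 1383485_at only, where rat 7 read 125, against 77 to 151 in untreated rats.

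Ccng1, which recruits a phosphatase to Mdm2, rose in contralateral brain. The signal in MRT tumors ran from 3024 to 8947 (median 5838), against 1513, 2656, 2205, 3137 and 2983 in untreated tumors. Only rat 7, at 3024, fell inside the untreated range. The log2 change of 1.27 ± 0.27 in tumor missed the threshold (limma, adjusted p = 0.057), and it passed without rat 7 (1.46, adjusted p = 0.0078).

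In contralateral brain Ccng1 ran from 4812 to 8522 (median 7314) after MRT, against 4123, 4083, 3349, 4732 and 4002 in untreated rats. Rat 7 was the lowest at 4812, just above the highest untreated array at 4732. The log2 change was 0.81 ± 0.14, or 1.75-fold (limma, adjusted p = 0.0035). It was the one contralateral call to miss the threshold when all 4 groups shared 1 fit (adjusted p = 0.051). Untreated tumors were below untreated contralateral brain by 0.74 on this scale (-0.74 ± 0.19, adjusted p = 0.0065), the opposite of Mdm2 and Cdkn1a.

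**Figure D2:**
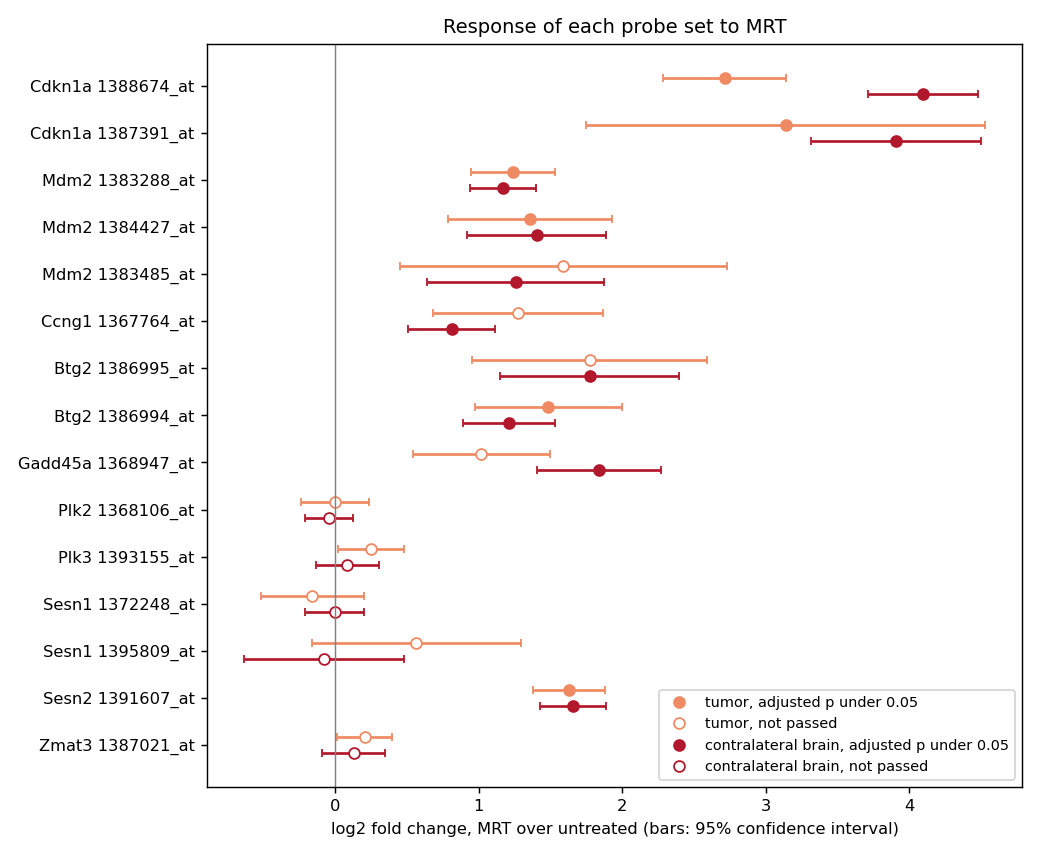
Log2 fold change of MRT over untreated for each of the 15 probe sets (horizontal axis) with its 95% confidence interval, in tumor (light) and contralateral brain (dark). Filled circles passed an adjusted p under 0.05. Both Cdkn1a probe sets stand furthest to the right, and the intervals of Plk2 and of both Sesn1 probe sets include 0 in both tissues.

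Btg2, an antiproliferative protein that recruits the deadenylase complex, varied more among untreated rats than the genes above, on the brightest probe set of each. The signal in MRT tumors ran from 590 to 1789 (median 1271), against 353, 202, 235, 268 and 826 in untreated tumors. Rat 5 was the high untreated tumor and reached above the lowest irradiated values. The change of 1.77 ± 0.37 in tumor did not pass (limma, adjusted p = 0.054), and it passed without rat 5 (2.11, adjusted p = 0.0045) or rat 6 (1.95, adjusted p = 0.046).

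In contralateral brain Btg2 ran from 1002 to 1913 (median 1516) after MRT, against 628, 274, 264, 311 and 769 in untreated rats. Rats 1 and 5 were the high untreated arrays, yet all 6 irradiated arrays lay above them. The log2 change was 1.77 ± 0.29 (3.42-fold, limma, adjusted p = 0.0022). The other Btg2 probe set, 1386994_at, rose in tumor (1.48 ± 0.23, adjusted p = 0.012) and in contralateral brain (1.21 ± 0.15, adjusted p = 0.00024).

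Of the 2 sestrins, Sesn2 rose in both tissues and Sesn1 passed in neither. Sesn2 ran from 1900 to 2854 (median 2258) in MRT tumors, against 870, 688, 789, 643 and 723 in untreated tumors. In contralateral brain it ran from 1318 to 1740 (median 1668) after MRT, against 482, 454, 591, 536 and 445 in untreated rats. The groups were apart in both tissues, with little spread within any of them. The log2 change was 1.63 ± 0.12 in tumor (3.09-fold, adjusted p = 7.5e-05) and 1.66 ± 0.11 in contralateral brain (3.15-fold, adjusted p = 7.3e-07), and the responses differed by -0.03 ± 0.16 (95% confidence interval -0.36 to 0.30).

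Sesn1 ran from 480 to 776 (median 665) in MRT tumors, against 513, 885, 727, 875 and 624 in untreated tumors. In contralateral brain it ran from 925 to 1288 (median 999) after MRT, against 1020, 1062, 1081, 1017 and 1068 in untreated rats. The ranges overlapped in both tissues. The changes were -0.16 ± 0.16 in tumor (95% confidence interval -0.52 to 0.20) and 0.00 ± 0.09 in contralateral brain (-0.21 to 0.20), and neither passed (limma, adjusted p = 0.94 and 1). Untreated tumors were below untreated contralateral brain (-0.56 ± 0.14, adjusted p = 0.007). The dimmer Sesn1 probe set, 1395809_at, gave 0.56 ± 0.33 in tumor and -0.08 ± 0.26 in contralateral brain.

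The polo-like kinases did not pass in either tissue. Plk2 covered 3930 to 4940 in MRT tumors, against 3560 to 5206 in untreated tumors, and 4330 to 5193 in MRT contralateral brain, against 4497 to 5341 in untreated contralateral brain. Its log2 change was 0.00 ± 0.11 in tumor (95% confidence interval -0.24 to 0.24) and -0.05 ± 0.08 in contralateral brain (-0.21 to 0.12). Plk3 was dim, at 109 to 151 in MRT tumors, 101 to 125 in untreated tumors, 115 to 161 in MRT contralateral brain and 111 to 139 in untreated contralateral brain, and changes of a probe set near this signal can be compressed. Its log2 change was 0.25 ± 0.10 in tumor (95% confidence interval 0.02 to 0.48, adjusted p = 0.52) and 0.08 ± 0.10 in contralateral brain.

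Zmat3 covered 1051 to 1337 in MRT tumors and 965 to 1171 in untreated tumors. In contralateral brain it covered 1339 to 1956 after MRT and 1322 to 1703 in untreated rats. Both pairs overlapped, with log2 changes of 0.20 ± 0.09 in tumor (95% confidence interval 0.01 to 0.40, adjusted p = 0.55) and 0.13 ± 0.10 in contralateral brain (-0.09 to 0.35). Zmat3 was lower in untreated tumor than in untreated contralateral brain (-0.48 ± 0.10, adjusted p = 0.0016).

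Between untreated tumor and untreated contralateral brain, 7 of the 10 genes passed, 4 higher (Cdkn1a, Mdm2, Gadd45a and Sesn2) and 3 lower (Ccng1, Sesn1 and Zmat3). Of all genes, 58.5% passed in this comparison, 29.9% higher and 28.6% lower, so the share among the members was close to the background. Sesn2 was higher by 0.57 ± 0.12 (adjusted p = 0.0018).

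The size of the MRT response varied from rat to rat in a way that differed by gene and, for Cdkn1a, Btg2 and Sesn1, by probe set. Rat 7 was the lowest MRT rat in both tissues for Mdm2, Ccng1 and Gadd45a, and the highest for Sesn2 in both tissues and for Cdkn1a in contralateral brain. For the dimmer Cdkn1a probe set, 1387391_at, rat 7 read 846 in contralateral brain, against 561 to 1668 in the other MRT rats. Rat 7 was the highest for Sesn1 1372248_at and the lowest for Sesn1 1395809_at in both tissues. It was also the highest in both tissues for Btg2 1386994_at, and lay between the other MRT rats for Btg2 1386995_at. In rat 7 the Mdm2 probe set 1384427_at read 1151 in tumor, against 2671 to 3635 in the other MRT tumors, and 676 in contralateral brain, against 1286 to 1870. Over all genes, rat 7 was the lowest of the 6 MRT rats for 19.0% and the highest for 35.6% in tumor, and the lowest for 24.1% and the highest for 39.4% in contralateral brain.

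**Figure D3:**
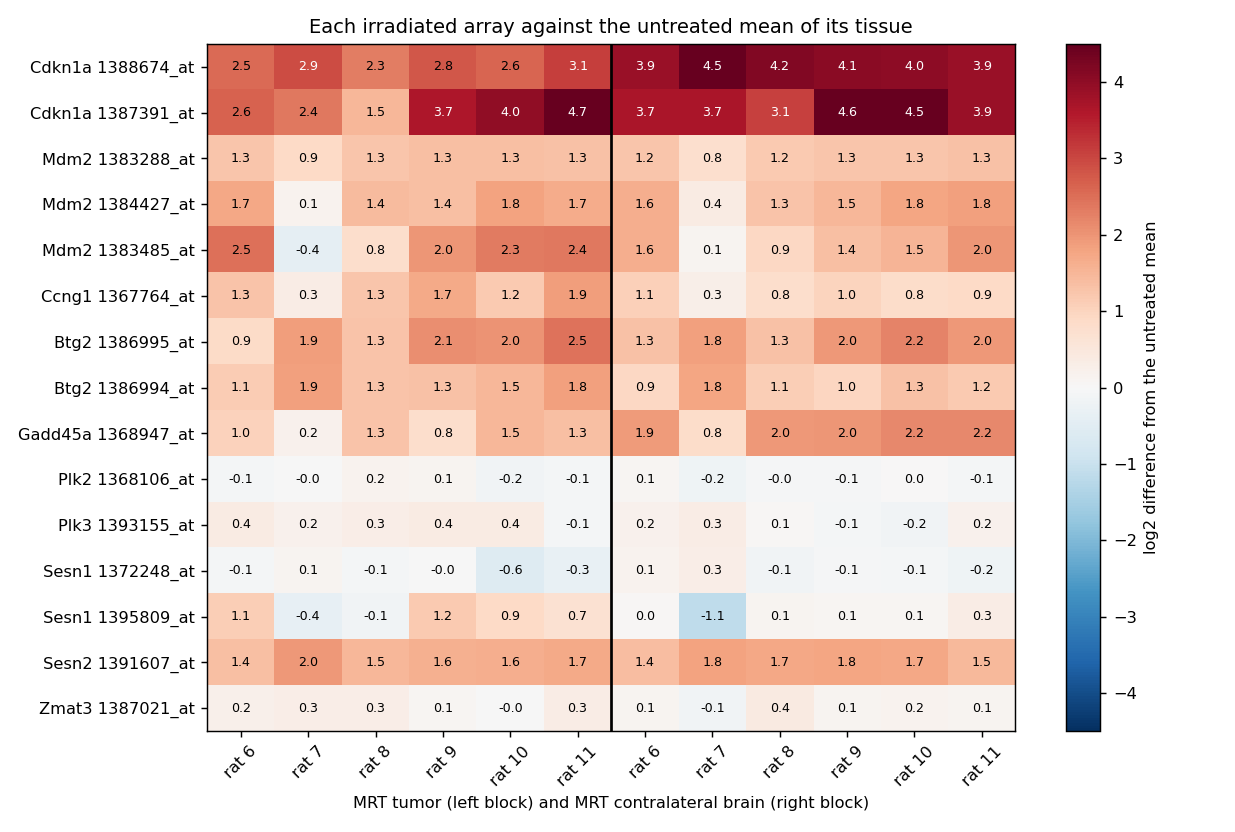
Log2 difference of each irradiated array from the mean of the untreated arrays of the same tissue, for the 15 probe sets (rows) and MRT rats 6 to 11 (columns), tumor in the left block and contralateral brain in the right. The column of rat 7 is pale for Mdm2, Ccng1 and Gadd45a and dark for Cdkn1a, Btg2 and Sesn2 in both blocks.

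The array's own RNA quality probes set rat 7 and the untreated rat 3 apart. The 5′ minus 3′ log2 signal of beta-actin, which drops when RNA is broken or amplification falls short, was -2.35 for rat 7 in tumor, against -1.53 to -0.71 in the other MRT tumors, and -2.06 in contralateral brain, against -1.62 to -0.98. Rat 3 read -2.45 in tumor, against -2.05 to -0.61 in the other untreated tumors, and -2.0 in contralateral brain, against -1.34 to -1.11. Leaving out both rats kept the same 6 calls in contralateral brain and gave 5 in tumor, where Ccng1 and Gadd45a joined Cdkn1a, Mdm2 and Sesn2. With the beta-actin value as a covariate there were 6 calls in contralateral brain and 3 in tumor. These 2 settings were chosen after the data had been seen.

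Cell type markers moved with MRT as well. In contralateral brain 2 of 4 endothelial genes fell, and 1 had a log2 change above 0 (0.56) that did not pass. The summed signal of the 4 was 1126 to 2998 after MRT, against 4535 to 5147 in untreated rats. Rat 7 alone gave the upper limit, and the other MRT rats reached 1938. All 5 microglial genes fell, with a sum of 1157 to 2036 (1370 at most without rat 7), against 2499 to 2898. Of 4 neutrophil and monocyte genes 3 rose, with a sum of 250 to 4104 after MRT, against 186 to 213, with Ccr2 under a signal of 58 on every contralateral array. In tumor 2 of 4 endothelial genes fell (sum 1455 to 2145 after MRT, against 2811 to 4425 in untreated rats), and 1 was above 0 (0.32) without passing. There 2 of 4 neutrophil and monocyte genes rose (sum 775 to 2609, against 175 to 856). In tumor 1 of 5 microglial genes fell (P2ry12, -2.11, adjusted p = 0.013). In contralateral brain the T cell genes Cd3g (1.52, adjusted p = 0.0042) and Cd3d (0.85, adjusted p = 0.012), 2 of 5, and the astrocyte gene Gfap (0.73, adjusted p = 0.049), 1 of 4, rose. Of 5 neuronal genes 0 passed in either tissue (limma), and 0 had an unadjusted p under 0.05. Their part in the changes of the 10 genes was not tested. In rat 7 the contralateral neutrophil and monocyte sum was 250, where the other MRT rats had 2127 to 4104. The same array was the highest of the 6 for Sesn2 and the brighter Cdkn1a probe set and the lowest for Mdm2, Ccng1 and Gadd45a.

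Other genes of the p53 pathway were measured for 23 of 30 listed. In tumor 6 rose and none fell, with a median log2 change over the list of 0.17, against -0.01 over all genes. The largest were Gdf15 (2.66 ± 0.30), a stress cytokine, the death receptor gene Fas (1.45 ± 0.20), the nuclease gene Aen (1.38 ± 0.10) and Phlda3 (0.89 ± 0.17), which represses Akt. In contralateral brain 9 rose and none fell, with a median of 0.24, and the largest were Fas (3.09 ± 0.22), Phlda3 (2.34 ± 0.12), Aen (2.12 ± 0.11) and Dram1 (1.75 ± 0.18), an autophagy gene.

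The response of Fas, Phlda3, Dram1 and Aen was smaller in tumor than in contralateral brain (differences of -1.65 ± 0.31, -1.45 ± 0.21, -1.13 ± 0.25 and -0.74 ± 0.15, limma interaction, all adjusted p of 0.04 or less). So was that of Cdkn1a, although that call was lost in several settings given above. Untreated tumors already stood above untreated contralateral brain for Fas (1.84 ± 0.14), Phlda3 (1.94 ± 0.20), Dram1 (2.06 ± 0.15) and Aen (0.57 ± 0.10), each passing. The change of Dram1 after MRT in tumor did not pass (0.63 ± 0.15, limma, adjusted p = 0.11). Gdf15 went the other way without passing (1.30 ± 0.40, adjusted p = 0.37).

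**Figure D4:**
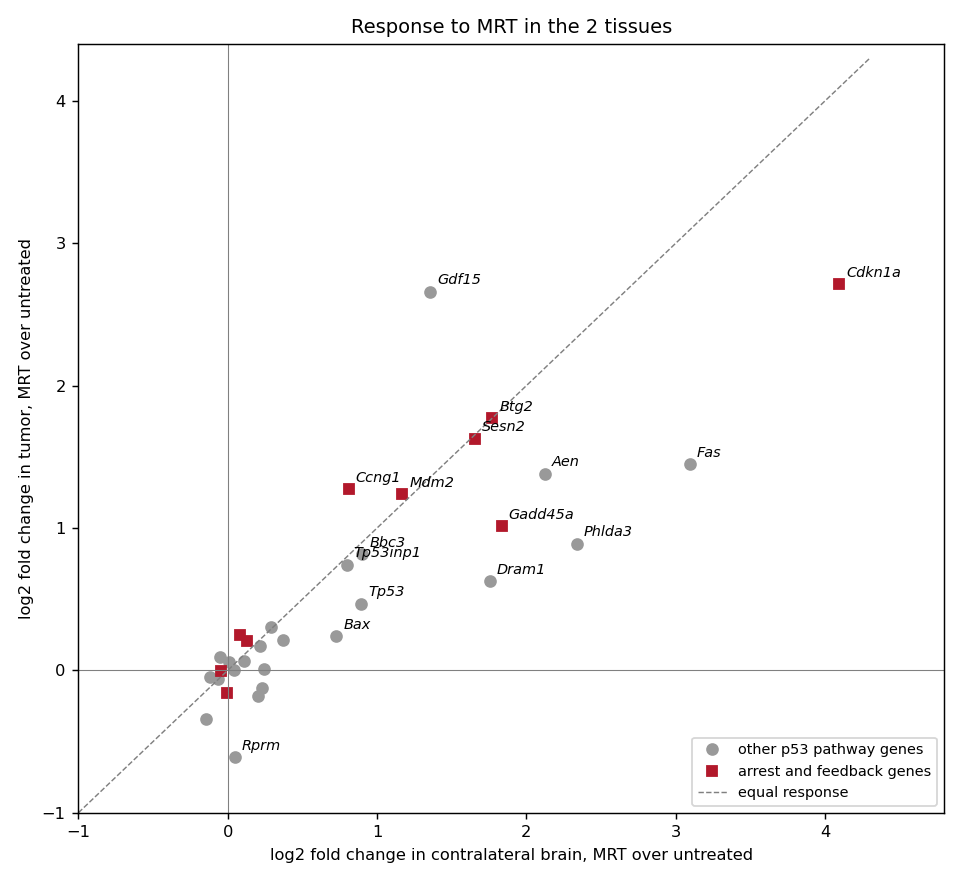
Log2 fold change of MRT over untreated in tumor (vertical axis) against that in contralateral brain (horizontal axis) for the 10 genes (squares) and 23 other p53 pathway genes (circles), with the line of equal response. Mdm2, Btg2 and Sesn2 lie close to the line, Cdkn1a, Fas and Phlda3 below it and Gdf15 above it.

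Among 17 paralogs of the 10 genes, 2 rose and 1 fell in tumor and 3 rose and none fell in contralateral brain. Gadd45b rose by 1.70 ± 0.17 in tumor and 2.02 ± 0.18 in contralateral brain, and Gadd45g rose by 1.32 ± 0.18 in tumor and 2.12 ± 0.12 in contralateral brain. The antiproliferative gene Btg1 rose in contralateral brain (0.62 ± 0.09). Plk1, the mitotic kinase, fell in tumor (-1.41 ± 0.20, adjusted p = 0.0053), with a mean signal of 443 after MRT, against 1175 in untreated tumors.

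Of 14 cell cycle genes downstream of the arrest genes (cyclins, their kinases, the Cdc25 phosphatases and the transcription factor gene E2f1), Ccnb1 (cyclin B1) fell in tumor (-1.39 ± 0.24, adjusted p = 0.017), with a mean signal of 1124 after MRT, against 2933 in untreated tumors. In contralateral brain Ccnd1 (cyclin D1) rose (0.78 ± 0.15) and Ccne2 (cyclin E2) fell (-0.52 ± 0.12). The other 13 in tumor and 12 in contralateral brain did not pass. Ccna2, Ccnb2 and Cdk1 were dim in untreated contralateral brain (mean signals of 27, 54 and 80), and changes near such signals can be compressed.

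A pair of stress programs that are known to share targets with p53 were also read. Among 12 ATF4 genes, which respond to amino acid and unfolded protein stress and include Sesn2, 4 rose in tumor and 3 in contralateral brain. In tumor they were Trib3 (1.64 ± 0.18), Sesn2, Chac1 (1.15 ± 0.15) and Atf4 (0.61 ± 0.09), and in contralateral brain Sesn2, Ddit3 (0.41 ± 0.07) and Atf4 (0.34 ± 0.08). The tumor change of Ddit3 was larger, at 0.90 ± 0.22, but did not pass (limma, adjusted p = 0.098). Its difference between tissues, 0.49 ± 0.23, did not pass either. Trib3 and Chac1 rose more in tumor than in contralateral brain (differences of 1.23 ± 0.24 and 1.00 ± 0.21, adjusted p = 0.019 and 0.026), while the difference for Sesn2 was the -0.03 given above. Among 11 immediate-early genes, Fos (1.28 ± 0.20) and Egr1 (0.88 ± 0.15) rose in tumor, and 5 rose in contralateral brain, with Atf3 (4.08 ± 0.21), Fos (2.11 ± 0.29), Ier3 (1.94 ± 0.27) and Ier2 (1.45 ± 0.17) the largest. The tumor change of Atf3, 1.76 ± 0.38, did not pass (limma, adjusted p = 0.062). It was smaller than the contralateral change (difference of -2.33 ± 0.46, limma interaction, adjusted p = 0.018).

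The genes most like Cdkn1a over the 22 arrays, after each tissue's mean was taken off, were Icam1 (Pearson r = 0.98), Aen (0.97) and Sbno2 (0.97). Those most like Mdm2 were Lcn2 (0.95), Aen (0.95) and Fosl1 (0.94). Within the 10 genes, Cdkn1a and Sesn2 had r = 0.97 and Cdkn1a and Mdm2 had r = 0.92. All these values are descriptions over arrays that share the MRT and untreated split.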

How the data were processed

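Total RNA of tumor and contralateral brain of 11 rats was hybridized by the authors to Affymetrix Rat Genome 230 2.0 arrays, 1 per rat and tissue. The deposited values are RMA signal intensity in arbitrary units, made by the authors with Affymetrix Expression Console, per the labels and the study's methods. The version is not given in the sources used here. The values were rounded to whole numbers and ranged from 10 to 36564 over 22 arrays. Their number limits the precision.

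Signals were taken to log2 and tested with limma 3.58.1 in R 4.3.3 (lmFit, eBayes) over 31042 probe sets after leaving out 57 controls, with Benjamini-Hochberg adjustment. MRT was compared with untreated in each tissue (6 against 5 rats), the responses between tissues over 22 arrays, and untreated tumor with untreated contralateral brain. Where a gene had several probe sets the one with the highest mean log2 signal stood for it. Named genes were the 10 members, up to 4 passing genes per direction, list and tissue with the largest change, and the 3 genes most correlated with Cdkn1a and Mdm2. The members and lists were chosen with earlier results of these data known. The fits were tested on simulated data.

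Nothing tells more of the replicates than 1 array per rat and tissue. A rat's number marks the same animal in both tissues. Deviations from the group means correlated between a rat's 2 tissues with a median r of 0.31 (0.097 to 0.649, 11 rats). Between different rats the median was 0.15 (-0.184 to 0.521) within a spike-in group, as described below, and -0.17 (-0.488 to 0.02) across these groups. The study names 2 sessions, which the labels do not assign. The contralateral arrays were split into 2 groups at the widest step in the 5′ to 3′ gap of the spike-in controls. This gave 6 steep and 5 flat rats, and each group held both treatments. Tumor arrays took the group of their rat, and their gaps overlapped (-2.80 to -1.31 steep, -1.46 to -0.73 flat). The fit was repeated with this grouping as a block. Alternatives were a level filter, array weights, trended robust variances, probe set means, 1 fit of all groups, the rat as a block, a SAM test written for this work after the one the methods name, without their present and absent filter, and leaving out each rat.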

Additional observations from a re-analysis of the deposited data

Results flagged for a closer look

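The 60 sets of values (15 probe sets in 4 groups) shared rats and genes and so were not independent. For independent sets, chance gives about 1 in 20. In all, 9 of the 60 sets held an array far from the others of its group by the Dixon ratio. Of these, 7 came from rat 7, which was low for Mdm2 1383288_at (3571 in MRT tumor, against 4558 to 4868 in the others, and 1672 in MRT contralateral brain, against 2227 to 2463), for Mdm2 1384427_at (1151 against 2671 to 3635 in tumor, and 676 against 1286 to 1870 in contralateral brain), and in contralateral brain for Ccng1 (4812 against 7025 to 8522), Gadd45a (834 against 1744 to 2092) and Sesn1 1395809_at (93 against 209 to 254). The other 2 came from rat 3 in untreated contralateral brain, high for Cdkn1a 1387391_at (114 against 52 to 65) and low for Sesn1 1395809_at (116 against 216 to 261). Rats 3 and 7 also had the lowest beta-actin 5′ minus 3′ values of their groups in both tissues. With that value as a covariate, 3 members passed in tumor and 6 in contralateral brain.

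The response of Cdkn1a 1388674_at to MRT differed between tumor and contralateral brain by -1.38 on the log2 scale in the limma interaction test (adjusted p = 0.019).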

How the results depend on the processing

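In contralateral brain the count of 6 members did not move by more than 1 under any alternative run, and no called result changed direction. In tumor the count of 3 became 6 with the level filter, with array weights, with all 4 groups in 1 fit and with SAM, and 5 with trended robust variances, with probe set means, with the spike-in block and without both rats 3 and 7, and it lay between 3 and 5 when each rat was left out. The genes gained were Ccng1, Btg2 and Gadd45a, which had adjusted p of 0.054 to 0.059. For the difference of responses, 1 member became 2 with array weights, without both rats 3 and 7 and with the rat as a fixed replicate block (2, with Gadd45a), stayed at 1 with the rat as a random replicate block, became 0 with probe set means, and the count ran from 0 to 2 when each rat was left out. The replicate block changed no other call, and the cause of these moves was not tested. In untreated tissue the count stayed at 7, or 8 with array weights. The spike-in groups were set on the contralateral arrays and overlapped in tumor. Within the flat and the steep group, the tumor log2 change was 1.78 and 0.83 for Ccng1 and 1.46 and 1.05 for Mdm2. The contralateral change was 1.28 and 2.01 for Btg2 and 4.39 and 3.93 for Cdkn1a. Rounded signals and 5 or 6 rats a group limit changes of dim probe sets such as Plk3.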
